A study of Homo sapiens with 36 samples.

Results

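Gene expression in sgT33-5_MC_F2, here called F2, was compared with that in the control line NT3 after treatment with the synthetic androgen R1881. Both are lines of LNCaP, an androgen-responsive human prostate cancer cell line from a lymph node metastasis. The comparison used 6 of the 36 RNA-seq libraries of the series, 3 for NT3 and 3 for F2, and took in every gene. Of 61805 genes in the table, 15519 passed an expression filter and were tested. All lines grew in RPMI medium, spent 3 days in medium with charcoal-stripped serum, which holds little steroid, and then received R1881 at 5 nM or the solvent DMSO for 6 h. The same 2 lines with DMSO gave a further 6 libraries. Both other TRIM33-guide lines of LNCaP, sgT33-5 and sgT33-5_MC_C2 (here C2), served for direct comparison with R1881, with 3 libraries each. From the title of the series, NT3 was read as the non-targeting control and sgT33-5 as a guide against TRIM33. The labels do not say what MC stands for, how F2 was derived, or whether the replicates were separate cultures. F2 is therefore 1 line, and a difference from NT3 cannot be told apart from a difference between cell lines that is unrelated to the guide. The p-values measure only the spread between replicate libraries of the LNCaP lines.

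TRIM33 belongs to the TIF1 family of nuclear proteins, reads modified histone tails, acts as a ubiquitin ligase and is best known as a partner and brake of SMAD transcription factors in TGF-beta signalling. Androgens such as R1881 switch on a set of genes in luminal prostate cells, among them KLK3, which encodes prostate-specific antigen. Ubiquitin on histone H2B is placed by the RNF20 and RNF40 ligases along transcribed genes. The title of the series links the loss of TRIM33 to androgen-driven transcription and to this histone mark.

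Library totals were 15488682 to 16099091 counts in NT3 and 16327028 to 18444264 in F2 with R1881, and mitochondrial genes took 5.18% to 6.01% and 4.29% to 5.79% of them. Replicates differed from each other by more than counting error, with a chi-square per gene between 3.36 and 10.8 where counting error alone would give about 1. The labelled cell type was borne out by its markers: 17 of 19 luminal prostate markers were tested, and their summed level was 10300 to 11100 CPM in NT3 and 7930 to 9100 in F2. Of the 17, 2 were higher in F2, 2 lower and 13 not called (11.8% in each direction, against 6.19% and 7.26% of all genes). KLK3, described below, was among the lower ones. Levels are in CPM, counts scaled to library totals adjusted by TMM. Leukocyte markers summed to at most 0.73 CPM in any of the 6 libraries, with CD3E, CD3D, MS4A1 and TYROBP among those at 0 counts, and 13 of 37 neuroendocrine and synaptic markers, among them CHGA and INSM1, were at 0 counts in all 6. The summed mesenchymal and stromal markers were at 310.0 to 334 CPM in NT3 and 227 to 263 in F2, while of its 10 tested members 2 were higher, 3 lower and 5 not called. The part of other cell types in the differences below was not tested.

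TRIM33 (ENSG00000197323, chromosome 1, 114392790 to 114511203 on GRCh38) checks the labels. With R1881 it stood at 128, 121 and 128 CPM in the NT3 libraries and at 52.8, 59.2 and 61.9 in F2. Every F2 library lay below every NT3 library. The difference, F2 minus NT3, was -1.12 on the log2 scale (SE 0.08, adjusted p = 1e-10, edgeR), and -1.14 (SE 0.08) with DMSO. Reads of TRIM33 thus remained in F2, and whether they come from an altered transcript was not tested. F2 and sgT33-5 were at the same level within error (difference -0.04, SE 0.08, adjusted p = 0.834), while F2 was above C2 by 0.45 (SE 0.08, adjusted p = 0.000127). Its relatives of the TIF1 family differed little: TRIM24 was at -0.20 (SE 0.06, adjusted p = 0.04) and TRIM28 at 0.10 (SE 0.06, adjusted p = 0.298), which was called at 0.18 without F2 replicate 3 (adjusted p = 0.0278). That TRIM24 call ended without NT3 replicate 1 or 2 (adjusted p = 0.0846 and 0.239) and without F2 replicate 1 or 3 (0.25 and 0.125).

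With R1881, 2087 genes differed between F2 and NT3 at an adjusted p under 0.05, which is 13.4% of those tested by edgeR; 960 (6.19%) were higher in F2 and 1127 (7.26%) lower. The largest differences were losses. At least 2-fold differences were 246 lower (1.59%) and 111 higher (0.715%), and at least 4-fold differences 86 lower and 17 higher. In bulk RNA, fewer cells that express a gene and less RNA per cell cannot be told apart. Libraries of the 2 lines did not overlap in 1953 of the called genes, against 26.8% of all genes tested. With DMSO the same lines differed in 2587 genes (16.7%), 1388 higher (8.94%) and 1199 lower (7.73%). There NT3 and F2 libraries of the same number went together (correlations of 0.129, 0.22 and 0.233), which the main fit does not use. With the number as a block the DMSO count was 3926 (2100 higher, 1826 lower). Without NT3 with DMSO, replicate 1, it was 1524. With the block the R1881 count was 3345 (1550 higher, 1795 lower), though with R1881 only numbers 2 and 3 gave a pair correlated above 0.1. A fit of only the 6 libraries compared called 1178 genes with R1881, and leaving out each of them in turn from the main fit gave 1413 to 2257. Higher genes outnumbered lower ones without F2 replicate 3 (1234 and 1023) and with no filter on low counts (1219 and 1019).

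Most of the difference was there without androgen. Of the genes called with R1881, 1409 were called in the same direction with DMSO, which is 67.5% of the R1881 calls and 54.5% of the DMSO calls, and 1 was called in opposite directions. The genes higher with R1881 had a median log2 difference of 0.36 with R1881 and 0.34 with DMSO, and the lower genes -0.46 and -0.36. Across all genes tested, which are not independent, the differences at the 2 treatments had a Pearson correlation of 0.82, as the scatter of R1881 against DMSO differences shows. These comparisons share no library, though they share the cell lines.

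**Figure D1:**
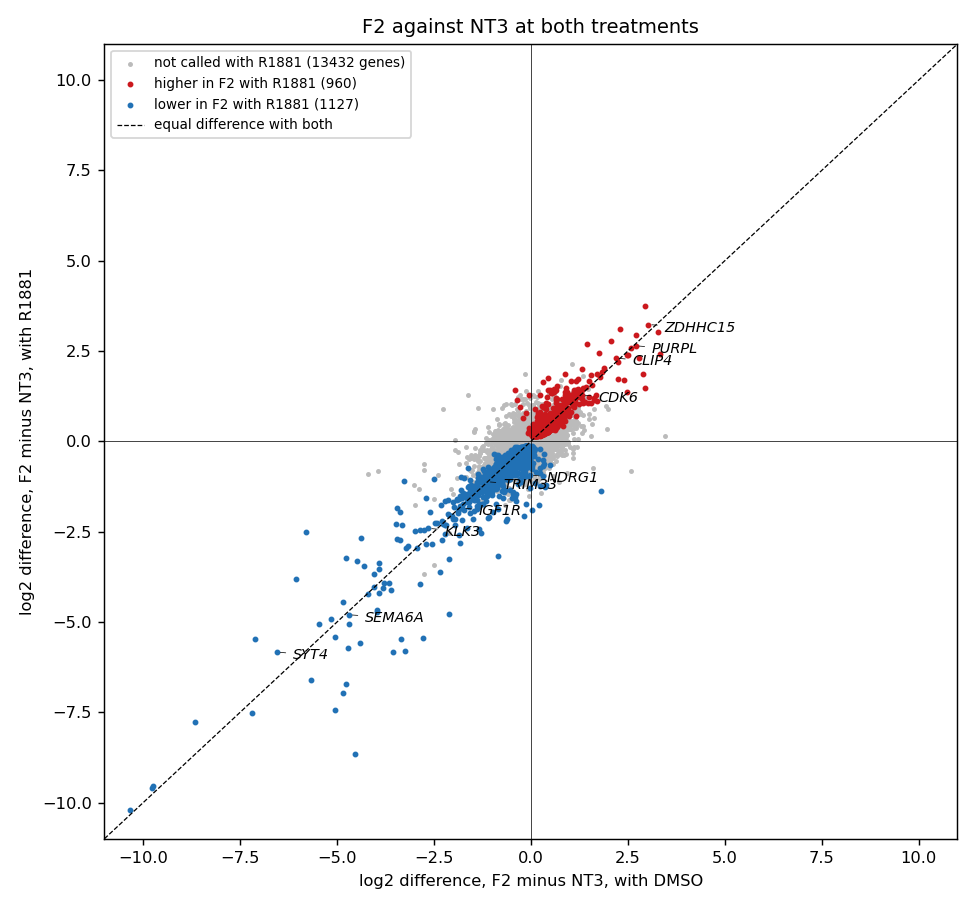
Log2 difference between F2 and NT3 for 15519 genes, with DMSO (x axis) and with R1881 (y axis); red genes were higher and blue genes lower in F2 with R1881 at an adjusted p under 0.05, grey genes were not called, and the dashed line marks equal differences. Called genes lie mostly along the line, with SYT4 and SEMA6A far below 0 at both treatments, while NDRG1 lies near 0 with DMSO and at -0.94 with R1881.

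The genes most reduced in F2 were largely silent there. SALL2, a zinc finger transcription factor of development, stood at 9.54, 10.2 and 6.44 CPM in NT3 with R1881 and had 0 counts in every F2 library, at least 47.5-fold lower if a library could hold up to 3 unseen counts. MAGEA4, a cancer-testis antigen of the X chromosome, went from 5.34, 5.14 and 6.91 CPM to 0 counts, at least 31.5-fold lower. Neither gene had a count in F2 with DMSO. SALL2 was also at 0 counts in C2, and MAGEA4 had 1 count in the 3 C2 libraries together, so these losses were not particular to F2. PRLR, the prolactin receptor, was at 1.65, 0.922 and 2.26 CPM in NT3 and 0 in F2, at least 8.77-fold lower. C2 kept 1.53 ± 0.465 CPM of PRLR (SD, n = 3), and F2 was below it (adjusted p = 2.61e-07).

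The 15 lowest called genes with at least 5 CPM in either line and no overlap between their libraries with R1881 included several known from neurons. SYT4, a synaptotagmin of secretory vesicles, was at 85.6, 57.8 and 81.2 CPM in NT3 and at 1.41, 1.74 and 0.736 in F2, a log2 difference of -5.83 (SE 0.31, adjusted p = 2.33e-10). AUTS2, a regulator of neural development, fell from 6.93, 6.72 and 6.24 CPM to 0.244, 0.109 and 0, by 5.73 on the log2 scale (SE 0.38, adjusted p = 4.19e-11). The sodium channel regulator UNC80 was at -2.95 (SE 0.26), and the semaphorin SEMA6D, an axon guidance ligand, fell from 31.2, 26.9 and 32.9 CPM to 4.34, 4.61 and 5.09 (-2.70, SE 0.12). No overlap with R1881 was thus a condition of the choice of these genes. With DMSO, too, their F2 libraries lay below all NT3 libraries. Over the neuroendocrine and synaptic list, however, SYT4 was the only member of 10 tested that was lower, while PEG10 and SYT7 were higher. PEG10, an imprinted gene of retrotransposon origin, rose from 82.6, 69.7 and 85.3 CPM to 202, 169.5 and 187 (1.23, SE 0.08, adjusted p = 6.57e-11). The list median was 0.02, beside -0.01 over all genes tested. The SYT7 call (0.35, SE 0.10, adjusted p = 0.0226) ended without NT3 replicate 3 (adjusted p = 0.12) and without F2 replicate 1 or 2 (0.0663 and 0.106).

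A further set of genes was far lower in F2 than in NT3, C2 and sgT33-5 alike. SEMA6A (chromosome 5, 116443555 to 116574823), a transmembrane semaphorin, fell from 101, 103 and 82.4 CPM to 3.85, 3.75 and 2.64, by 4.80 (SE 0.20, adjusted p = 5.53e-12). That its F2 libraries did not overlap with NT3 with R1881 was a condition of the choice. ALB, which encodes serum albumin, went from 8.20, 5.53 and 4.98 CPM to 0.611, 0.271 and 0.123 (-4.20, SE 0.48), and CHRM3, a muscarinic acetylcholine receptor, from 25.6, 36.4 and 14.6 to 2.20, 2.39 and 1.35 (-3.67, SE 0.55). C2 kept 75.2 ± 13.9 CPM of SEMA6A, 5.24 ± 1.59 of ALB and 26 ± 8.13 of CHRM3 (SD, n = 3). The direct difference of F2 minus C2 with R1881 was -4.45 (SE 0.21) for SEMA6A, -3.94 (SE 0.49) for ALB and -3.70 (SE 0.54) for CHRM3, with adjusted p of 8.37e-05 or less. Against sgT33-5 the same genes were at -4.94, -4.72 and -3.43, each called.

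The higher genes changed less. ZDHHC15, a palmitoyltransferase of the X chromosome, was at 1.84, 0.791 and 1.40 CPM in NT3 and at 11.1, 13.5 and 13.7 in F2 (3.23, SE 0.25, adjusted p = 1.78e-09). CLIP4, which encodes a protein with microtubule-binding CAP-Gly domains, rose from 1.40, 1.78 and 1.33 CPM to 6.54, 7.76 and 8.03 (2.30, SE 0.19, adjusted p = 1.59e-09). PURPL, a long noncoding RNA induced by p53, rose from 0.954, 1.19 and 0.996 to 8.19, 5.32 and 6.31 (2.65, SE 0.28). The highest genes were chosen for no overlap between F2 and NT3 with R1881, so that these genes show none is no separate support. ZDHHC15 and CLIP4 were higher than in C2, by 3.60 (SE 0.25) and 5.82 (SE 0.28), and than in sgT33-5, by 3.03 (SE 0.25) and 3.59 (SE 0.22). CLIP4 was below NT3 in C2 (0.125 ± 0.0316 CPM, SD, n = 3), so the F2 and C2 lines lay on opposite sides of NT3. CAMK2N1, an inhibitor of calcium/calmodulin-dependent kinase II, went from 193, 239 and 184 CPM to 698, 806 and 715 (1.85, SE 0.10) and differed from C2 by 0.06 (SE 0.10, adjusted p = 0.737) and from sgT33-5 by 0.07 (SE 0.10, adjusted p = 0.766). PLA2G2A, a secreted phospholipase, went from 18.6, 19.4 and 18.3 to 66.3, 62.8 and 65.5 (1.79, SE 0.07) and was lower than in C2 by 0.44 (SE 0.06).

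Among the remaining strongest genes, some differed from C2 as well and some did not. BVES, a membrane protein of muscle and epithelia, was at 7.06, 7.51 and 5.18 CPM in NT3 and 0.305, 0.380 and 0.184 in F2 (-4.45, SE 0.30, adjusted p = 5.8e-11), and was below C2 by 2.27 (SE 0.38). ADGRL2, an adhesion receptor, fell from 4.77, 5.14 and 5.91 CPM to 0.611, 0.814 and 0.920 (-2.74, SE 0.24) and differed from C2 by 0.21 (SE 0.33, adjusted p = 0.715). BMX, a tyrosine kinase of the TEC family, fell from 9.85, 6.65 and 8.44 to 1.28, 1.19 and 0.981 (-2.84, SE 0.23), while sgT33-5 held 9.29 ± 1.16 CPM (SD, n = 3). With DMSO none of these F2 libraries overlapped with NT3, and with R1881 no overlap was a condition of the choice. Among higher genes SYTL2, a RAB27 effector of vesicle docking, went from 2.23, 2.11 and 3.06 CPM to 9.41, 9.07 and 8.52 (1.87, SE 0.18, adjusted p = 2.99e-08). MVP, the major protein of vault particles, went from 2.1, 3.03 and 2.33 to 6.41, 9.07 and 6.56 (1.57, SE 0.20), and NOS3, endothelial nitric oxide synthase, from 1.27, 1.98 and 2.13 to 6.23, 5.32 and 3.80 (1.52, SE 0.25). F2 lay above NT3 in every library of these genes, which was again a condition of the choice with R1881. SYTL2 and NOS3 were also above C2, by 1.43 (SE 0.16) and 1.14 (SE 0.23), and MVP differed from C2 by 0.40 (SE 0.17, adjusted p = 0.101).

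**Figure D2:**
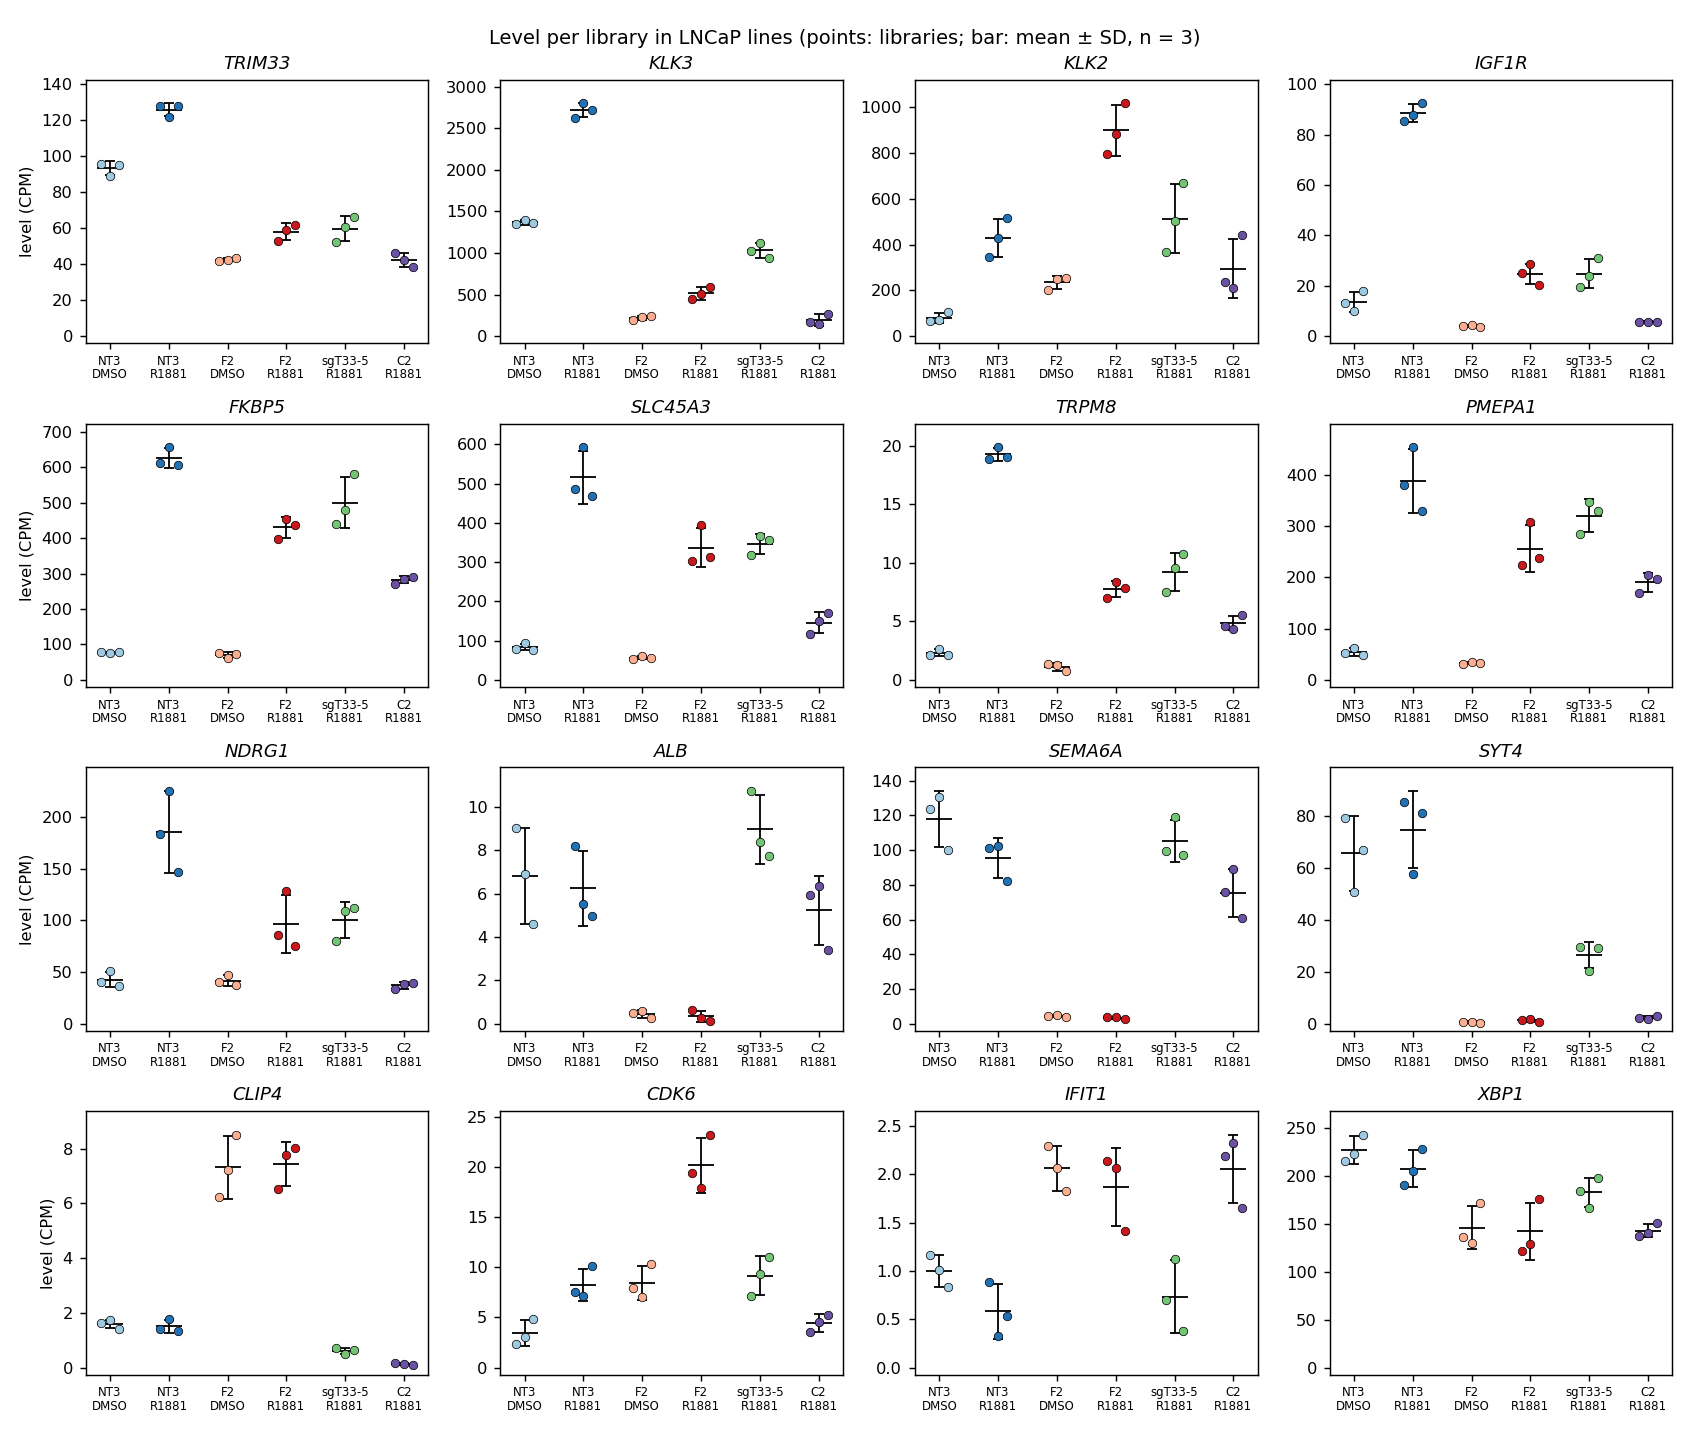
Level in CPM of 16 genes in each library of 6 LNCaP groups, with the mean and SD of 3 libraries as bars. TRIM33, KLK3, IGF1R, ALB, SEMA6A and SYT4 lie lower in every F2 library than in every NT3 library of the same treatment, while KLK2, CLIP4, CDK6 and IFIT1 lie higher.

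Androgen-responsive genes were lower in F2 as a group, but unevenly. Of the 100 genes of the androgen response list that were tested, 33 were lower in F2 with R1881 (33%, against 7.26% of all genes) and 6 were higher (6.0%, against 6.19%), with a median log2 difference of -0.18 against -0.01 over all genes. With DMSO 13 were lower and 11 higher, with a median of -0.06. The number lower with R1881 was 20 without F2 replicate 1. Genes that R1881 raised at least 2-fold in NT3 cells of 42D, a cell line derived from LNCaP that contributed no library to this comparison, gave 141 lower (39.8%) and 10 higher (2.82%) of 354 tested, with a median of -0.33 with R1881 and -0.08 with DMSO.

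KLK3 and its neighbour KLK2, both kallikrein proteases driven by androgen in luminal cells, moved in opposite directions. KLK3 (chromosome 19, 50854915 to 50860764) was at 2631, 2804 and 2721 CPM in NT3 with R1881 and at 440.4, 511 and 588 in F2, a log2 difference of -2.41 (SE 0.21, adjusted p = 3.91e-07). KLK2 (chromosome 19, 50861568 to 50880567) was at 346, 428 and 515 CPM in NT3 and at 797, 883 and 1019 in F2, a difference of 1.07 (SE 0.32, adjusted p = 0.0373). For either gene no F2 library overlapped with an NT3 library, at R1881 or DMSO. With DMSO KLK3 was at -2.65 (SE 0.21) and KLK2 at 1.56 (SE 0.34), so both differences were there before androgen. The hormone raised both genes in both lines, KLK3 by 0.99 (SE 0.20) in NT3 and 1.23 (SE 0.20) in F2, and KLK2 by 2.43 (SE 0.35) and 1.94 (SE 0.33). The KLK2 call is the less secure: it ended without NT3 replicate 1 or 2 (adjusted p = 0.14 and 0.0944) and without F2 replicate 1, 2 or 3 (0.0592, 0.0778 and 0.0862). KLK2 and KLK3 are close paralogs, and reads may be shared between them.

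Their promoters are shown because these neighbours are alike in sequence and diverge in F2. Each window holds the 250 bases before the start of the gene in RefSeq on GRCh38.p14, on the plus strand, at chr19:50854665-50854914 for KLK3 and chr19:50873189-50873438 for KLK2, with any copy of the androgen half-site AGAACA, searched on both strands, in capitals.
KLK3: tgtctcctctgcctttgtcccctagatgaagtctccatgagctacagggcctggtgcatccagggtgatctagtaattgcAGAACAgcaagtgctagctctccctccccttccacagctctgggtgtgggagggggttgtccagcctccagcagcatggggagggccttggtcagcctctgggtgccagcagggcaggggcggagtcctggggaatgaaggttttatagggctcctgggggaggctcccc
KLK2: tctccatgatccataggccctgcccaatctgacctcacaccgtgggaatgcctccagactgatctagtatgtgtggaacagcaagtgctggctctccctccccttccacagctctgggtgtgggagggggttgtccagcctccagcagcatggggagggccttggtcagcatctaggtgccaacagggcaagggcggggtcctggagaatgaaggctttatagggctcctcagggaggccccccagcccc
The windows share an unbroken run of 80 bases. The RefSeq start of KLK2 lies within the span that the deposited table gives for the gene. The KLK3 window holds 1 copy of AGAACA, starting at base -170. The search took exact letters only, and these are not in the KLK2 window. At the matching place KLK2 reads ggaaca, which differs in 1 base, followed by the same gcaagtgct. Whether either site acts in these cells was not tested. The half-site was in 12.4% of all 27305 promoter windows, and in 2 of 27 windows of androgen response genes that were lower in F2, those of KLK3 and STK39.

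Among the other lower members, receptors and secreted proteins showed the largest differences. BMPR1B, a receptor for bone morphogenetic proteins, fell from 23.5, 21.0 and 29.4 CPM to 6.35, 6.57 and 6.62 (-1.92, SE 0.16, adjusted p = 3.57e-09). ADAMTS1, a secreted metalloprotease, fell from 225, 286 and 184 to 67.7, 76.4 and 53.6 (-1.81, SE 0.22, adjusted p = 2.74e-05). TRPM8, an androgen-regulated cation channel, fell from 18.9, 19.9 and 19.0 to 7.03, 8.36 and 7.85 (-1.31, SE 0.13, adjusted p = 3.56e-08). F2 and NT3 libraries did not overlap in any of these, at either treatment. Widely used readouts of androgen action differed less. FKBP5, a chaperone of steroid receptors, went from 612, 658 and 607 CPM to 398, 455 and 438 (-0.54, SE 0.08, adjusted p = 5.61e-05), SLC45A3, a transporter of luminal cells, was at -0.62 (SE 0.12), the TGF-beta feedback gene PMEPA1 at -0.60 (SE 0.12) and the kinase CAMKK2 at -0.34 (SE 0.07), all called. TMPRSS2 was at -0.19 (SE 0.13, adjusted p = 0.38) and ELL2 at -0.22 (SE 0.08, adjusted p = 0.0616), and neither was called. Without F2 replicate 2 both were (adjusted p = 0.0468 and 0.00787), and ELL2 was also called without NT3 replicate 3 (0.0401), with no filter on low counts (0.0197) and without 2 sgT33-5 libraries of low mitochondrial share (0.0393). ABCC4, a transporter, was called at -0.32 (adjusted p = 0.0269), a call that ended without NT3 replicate 2 or 3 (adjusted p = 0.127 and 0.0537) or F2 replicate 1 or 3 (0.178 and 0.0754).

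Several further members had a difference with R1881 and a smaller one with DMSO that was not called. They were picked for a call with R1881, which favours a smaller value with DMSO. A call at 1 treatment only is no test of a difference between treatments, and 0 of 15519 genes passed the interaction test given below. MERTK, a receptor tyrosine kinase, was at 20.3, 21.2 and 17.9 CPM in NT3 and 12.2, 15.4 and 13.9 in F2 with R1881 (-0.51, SE 0.10, adjusted p = 0.000469), and at -0.12 (SE 0.10) with DMSO. TSC22D1, a leucine zipper protein, fell from 478, 526 and 477 CPM to 341, 388 and 353 (-0.45, SE 0.05, adjusted p = 1.5e-06), and was at -0.14 (SE 0.05) with DMSO. HOMER2, a scaffold protein, was at -0.41 (SE 0.06) with R1881 and -0.18 (SE 0.06) with DMSO. Libraries of these genes did not overlap with R1881. PLPP1, a lipid phosphatase, was lower at both treatments alike: it went from 490.0, 552 and 469 CPM to 274, 346 and 305 with R1881 (-0.71, SE 0.08, adjusted p = 3.91e-07) and was at -0.67 (SE 0.08) with DMSO. HPGD, which degrades prostaglandins, fell from 3.56, 5.34 and 3.92 CPM to 1.41, 1.63 and 0.981 with R1881 (-1.66, SE 0.22), and was at most 0.431 CPM in the DMSO libraries. SGK1, a kinase that was at most 0.994 CPM with DMSO, stood at 34.0, 41.1 and 39.1 in NT3 and 16.2, 29.0 and 23.8 in F2 with R1881 (-0.72, SE 0.19, adjusted p = 0.0143). The SGK1 call ended without NT3 replicate 2 (adjusted p = 0.0571) or F2 replicate 1 (0.0833). These 6 genes were higher in F2 than in C2, by 0.21 (TSC22D1, SE 0.05) to 1.49 (SGK1, SE 0.21).

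The 6 higher members of the list included a pair of genes that drive entry into the cell cycle. CDK6, a cyclin D-dependent kinase, rose from 7.57, 7.12 and 10.1 CPM to 19.4, 17.9 and 23.2 (1.29, SE 0.19, adjusted p = 5.29e-05), and CCND1, a D-type cyclin, from 371, 376 and 370.5 to 528, 566 and 539 (0.55, SE 0.04, adjusted p = 2e-09). INPP4B, a phosphoinositide phosphatase, rose from 3.18, 3.95 and 3.32 to 5.25, 8.03 and 6.44 (0.92, SE 0.20, adjusted p = 0.00206). The same 3 genes were higher with DMSO, by 1.31, 0.56 and 0.96, with no overlap between lines. F2 was also above both other guide lines in each: CDK6 exceeded C2 by 2.17 (SE 0.20) and sgT33-5 by 1.13 (SE 0.19), and CCND1 exceeded either by 0.40 (SE 0.04). On the cell cycle list, by contrast, 1 of 43 members was higher and 1 lower, with a median of -0.02. That is 2.33% each, against 6.19% and 7.26% of all genes.

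FOXA1 and HOXB13 are transcription factors of luminal prostate cells. The pioneer factor FOXA1 was at 0.01 (SE 0.08, adjusted p = 0.971) and the homeodomain factor HOXB13 at 0.17 (SE 0.07, adjusted p = 0.107), and neither was called. HOXB13 was called at 0.17 with a replicate block (adjusted p = 0.00834), at 0.19 with no filter on low counts (0.00957), at 0.24 without NT3 replicate 1 (0.0478) and at 0.26 without F2 replicate 3 (0.0144). NCOA1, a coactivator of nuclear receptors, rose from 147, 162 and 157 CPM to 189, 221 and 219 (0.43, SE 0.07, adjusted p = 9.65e-05), and differed from C2 by 0.32 (SE 0.07) and from sgT33-5 by 0.42 (SE 0.07). Of 20 genes for enzymes that place or remove ubiquitin on H2B, 1 was higher and 1 lower. That is 5.0% each, below the 6.19% and 7.26% of all genes. USP27X, a deubiquitinase of the X chromosome, rose from 10.7, 10.0 and 10.6 CPM to 16.7, 16.6 and 18.1 (0.72, SE 0.09, adjusted p = 1.78e-06). USP3 was at -0.22 (SE 0.07, adjusted p = 0.0234), a call that was lost on leaving out NT3 replicate 1 or 2 or F2 replicate 1 or 2 (adjusted p = 0.108, 0.0983, 0.0973 and 0.08). Of 17 tested genes on a list of those that androgen represses, 7 were lower and 2 higher (41.2% and 11.8%, against 7.26% and 6.19% of all genes), with a median of -0.29 and, with DMSO, -0.62. Of 208 tested genes that R1881 lowered at least 2-fold in NT3 cells of 42D, 29 were lower and 29 higher (13.9% each), with a median of 0.11, and with DMSO 43 were lower and 20 higher. OPRK1, an opioid receptor, fell from 2.99, 2.31 and 3.06 CPM to 0.244, 0.0543 and 0.245 (-3.93, SE 0.38), and the bile salt transporter ABCB11 rose from 2.73, 2.37 and 3.72 to 11.4, 5.97 and 6.31 (1.42, SE 0.29).

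**Figure D3:**
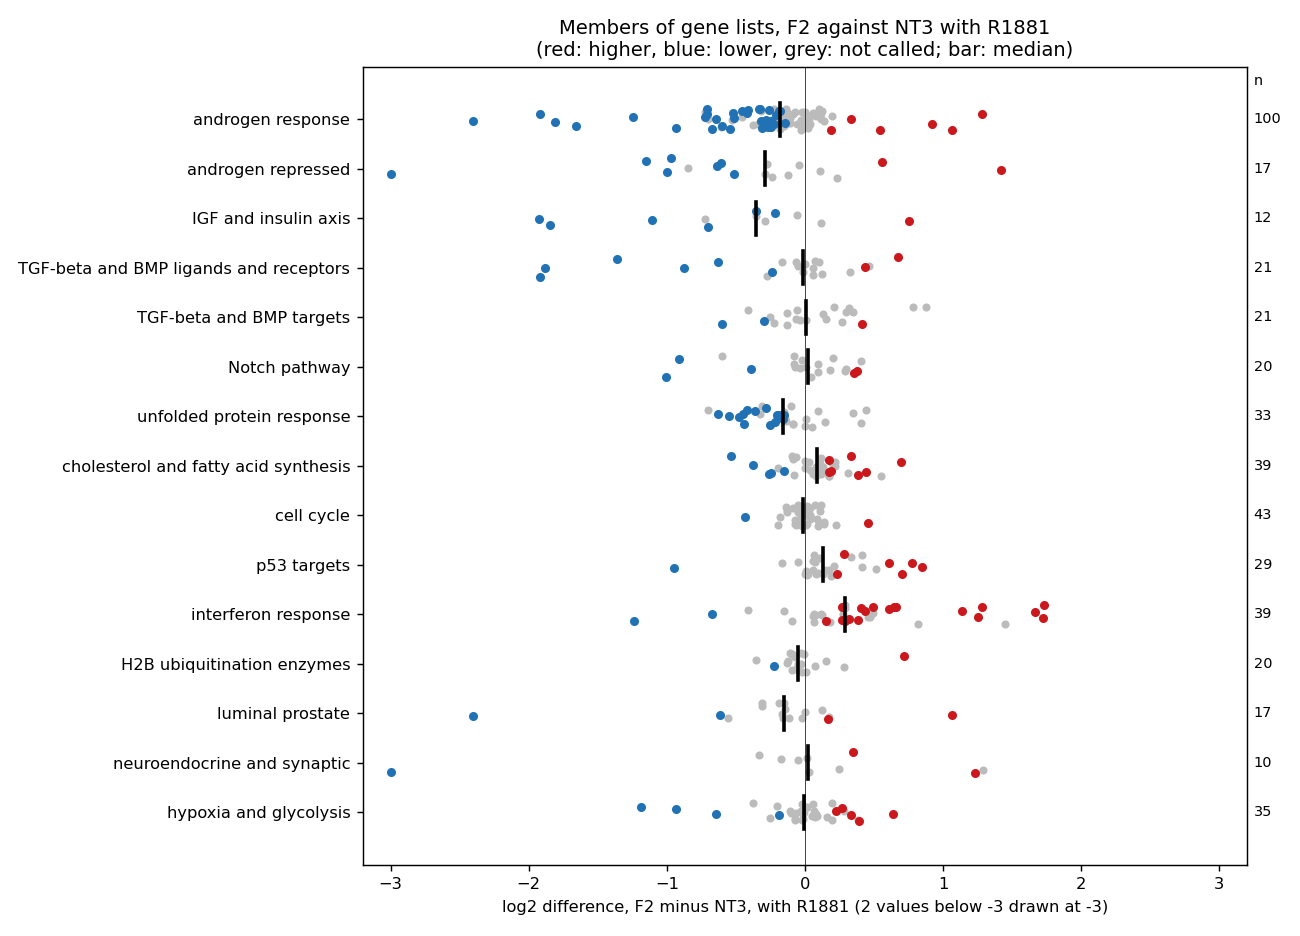
Log2 difference between F2 and NT3 with R1881 for the tested members of 15 gene lists, a point per gene, with the list median as a black bar and the number tested at the right; 2 values more than 3 below 0 are drawn at that limit. Androgen response, IGF and insulin axis and unfolded protein response members lie mostly below 0, and interferon response members mostly above.

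Genes of insulin-like growth factor signalling, through which IGF1 binds the receptor IGF1R and passes the signal to the adaptors IRS1 and IRS2, differed at several steps. Of 12 genes tested, 6 were lower and 1 higher (50.0% and 8.33%, against 7.26% and 6.19% of all genes), with a median of -0.35 with R1881 and -0.31 with DMSO. The weakest of the 6 lower calls, at adjusted p = 0.0342 and 0.027, each ended without NT3 replicate 1 or F2 replicate 1. IGF1R was at 85.6, 87.9 and 92.6 CPM in NT3 and 24.9, 28.4 and 20.5 in F2 (-1.85, SE 0.14, adjusted p = 4.64e-09). IRS1 fell from 13.1, 11.1 and 14.6 to 6.29, 6.08 and 5.64 (-1.10, SE 0.16), and IRS2 from 28.4, 33.5 and 25.1 to 14.5, 23 and 15.8 (-0.70, SE 0.13). All F2 libraries lay below all NT3 libraries. The ligand IGF1 rose instead, from 7.76, 7.84 and 7.97 CPM to 12.2, 13.6 and 13.9 (0.75, SE 0.15, adjusted p = 0.00106). IGFBP5, a secreted binding protein for the ligands, fell from 6.87, 7.51 and 5.12 to 1.83, 1.74 and 1.53 (-1.93, SE 0.21, adjusted p = 3.78e-07). The lines differed in how far each gene moved. IGF1R in F2 was at the level of sgT33-5 (difference -0.01, SE 0.15, adjusted p = 0.987) and above C2 by 2.13 (SE 0.18), IGFBP5 was lower than in sgT33-5 by 1.88 and than in C2 by 1.95 (SE 0.21 each), and IGF1 was higher than in sgT33-5 by 1.15 (SE 0.16) and than in C2 by 0.79 (SE 0.15).

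TGF-beta and bone morphogenetic protein genes, the pathway in which TRIM33 is best known, gave calls among ligands, receptors and targets. Of 21 ligands, receptors and secreted antagonists, 6 were lower and 2 higher (28.6% and 9.52%, against 7.26% and 6.19% of all genes), with a median of -0.02. The weakest of the lower calls (adjusted p = 0.0349) ended on leaving out any of the NT3 or F2 libraries with R1881. Beside BMPR1B, the antagonist CHRD fell from 1.21, 1.98 and 1.20 CPM to 0.428, 0.543 and 0.184 (-1.88, SE 0.35, adjusted p = 0.000504), the secreted modulator FSTL1 from 19.3, 21.0 and 13.2 to 7.51, 7.98 and 5.21 (-1.36, SE 0.19), and the ligand BMP6 from 8.71, 12.8 and 7.64 to 5.13, 6.03 and 4.66 (-0.88, SE 0.20). INHBB, a subunit of activin, rose from 10.7, 10.1 and 11.1 to 16.6, 18.6 and 15.8 (0.68, SE 0.11). Lines did not overlap in these genes with R1881. Of 21 target genes 2 were lower (PMEPA1 and the SMAD ubiquitin ligase SMURF2) and 1 higher (BHLHE40; 9.52% and 4.76%), with a median of 0.01, and the difference between the groups was not tested. Against C2 9 of the 21 ligands, receptors and antagonists were higher in F2 and 2 lower (11.7% and 9.26% of all genes were), with a median of 0.253. Against sgT33-5 2 were higher and 4 lower, with a median of 0.053. Unlike most, FSTL1 was lower than in C2, by 1.17 (SE 0.19). It was level with sgT33-5 within error (0.05, SE 0.21, adjusted p = 0.931). In the Notch pathway, which signals between neighbouring cells, the ligand JAG1 fell from 548, 566 and 442 CPM to 259, 332 and 237 (-0.91, SE 0.15, adjusted p = 0.000284), among 20 tested of which 3 were lower and 2 higher.

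Interferon-stimulated genes, which respond to antiviral signalling, were higher in F2. Of 39 tested, 18 were higher and 2 lower with R1881 (46.2% and 5.13%, against 6.19% and 7.26% of all genes), with a median of 0.29, and with DMSO 19 were higher, with a median of 0.36. Their levels were low. IFIT1, an antiviral RNA-binding protein, was at 0.890, 0.329 and 0.531 CPM in NT3 and at 2.14, 2.06 and 1.41 in F2 (1.66, SE 0.33, adjusted p = 0.00082). SAMD9 rose from 0.572, 0.725 and 0.996 to 2.50, 1.95 and 3.19 (1.72, SE 0.27, adjusted p = 5.61e-05), and IFIT2 from 1.40, 2.70 and 1.73 to 4.46, 5.10 and 4.60 (1.28, SE 0.21, adjusted p = 8.45e-05). IFI35 rose from 4.77, 5.80 and 6.71 to 12.6, 14 and 14.7 (1.25, SE 0.13), and ISG15, a ubiquitin-like modifier, from 11.6, 14.3 and 11.4 to 20.5, 21.4 and 15 (0.61, SE 0.13). No F2 library overlapped with NT3 in these 5 genes. HERC5, the ligase for ISG15, was in contrast lower, from 9.41, 7.45 and 7.31 CPM to 5.93, 4.56 and 4.72 (-0.67, SE 0.19, adjusted p = 0.0164), a call that ended without NT3 replicate 1 (adjusted p = 0.113) or F2 replicate 2 (0.0746). Against sgT33-5 13 of the 39 were higher in F2 (4.45% of all genes were), and against C2 12 were higher and 1 lower (11.7% and 9.26%). IFIT1 was 1.34 above sgT33-5 (SE 0.31) and at -0.13 from C2 (SE 0.25, adjusted p = 0.77). IFI35 was above sgT33-5 by 0.66 and above C2 by 0.77 (SE 0.12 each).

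Genes of the unfolded protein response, which holds the chaperones and foldases of the endoplasmic reticulum, were lower. Of 33 tested, 14 were lower with R1881 (42.4%, against 7.26% of all genes) and 25 had a value below 0 (as did 7988 of all 15519 genes), with a median of -0.16. With DMSO 9 were lower (7.73% of all genes were), all of them among the 14, with a median of -0.06. The number with R1881 was 7 without NT3 replicate 2, 9 without NT3 replicate 3, 7 without F2 replicate 1 and 8 with only the libraries compared. HYOU1, a large chaperone of the reticulum, fell from 487, 495 and 562 CPM to 319, 314 and 368 (-0.63, SE 0.08, adjusted p = 4.29e-06). HSP90B1 fell from 1137, 1211 and 1194 to 828, 868 and 950.0 (-0.42, SE 0.05, adjusted p = 2.04e-06), and HSPA5, the chaperone BiP, from 958, 1085 and 1108 to 750.3, 821 and 878 (-0.36, SE 0.07, adjusted p = 0.000342). XBP1, the transcription factor of the response, lies on chromosome 22 and fell from 191, 205 and 228 to 122, 129 and 177 (-0.55, SE 0.12, adjusted p = 0.00465). The 2 lines did not overlap in these 4 genes. In the stress-signalling branch of the list ATF4 was at -0.08, DDIT3 at 0.14 and TRIB3 at 0.40, with adjusted p of 0.819, 0.824 and 0.513. MANF, a secreted factor of the reticulum, fell from 98.5, 105 and 106 CPM to 69.9, 69.2 and 83.3 (-0.48, SE 0.09), and CRELD2, which also lies on chromosome 22, from 42.7, 43.6 and 45.6 to 34.6, 31.4 and 31.2 (-0.44, SE 0.06). Against C2 the list ran the other way, with 8 of 33 higher in F2 and 2 lower (11.7% and 9.26% of all genes were) and a median of 0.146. Against sgT33-5 0 were higher and 2 lower (4.45% and 4.29% of all genes were), with a median of -0.055. HYOU1 was lower than in sgT33-5 (-0.49, SE 0.08) and C2 (-0.28, SE 0.08), while HSPA5 was above C2 by 0.24 (SE 0.07). The paired values with R1881 and DMSO are plotted for members of this list and of the interferon list.

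**Figure D4:**
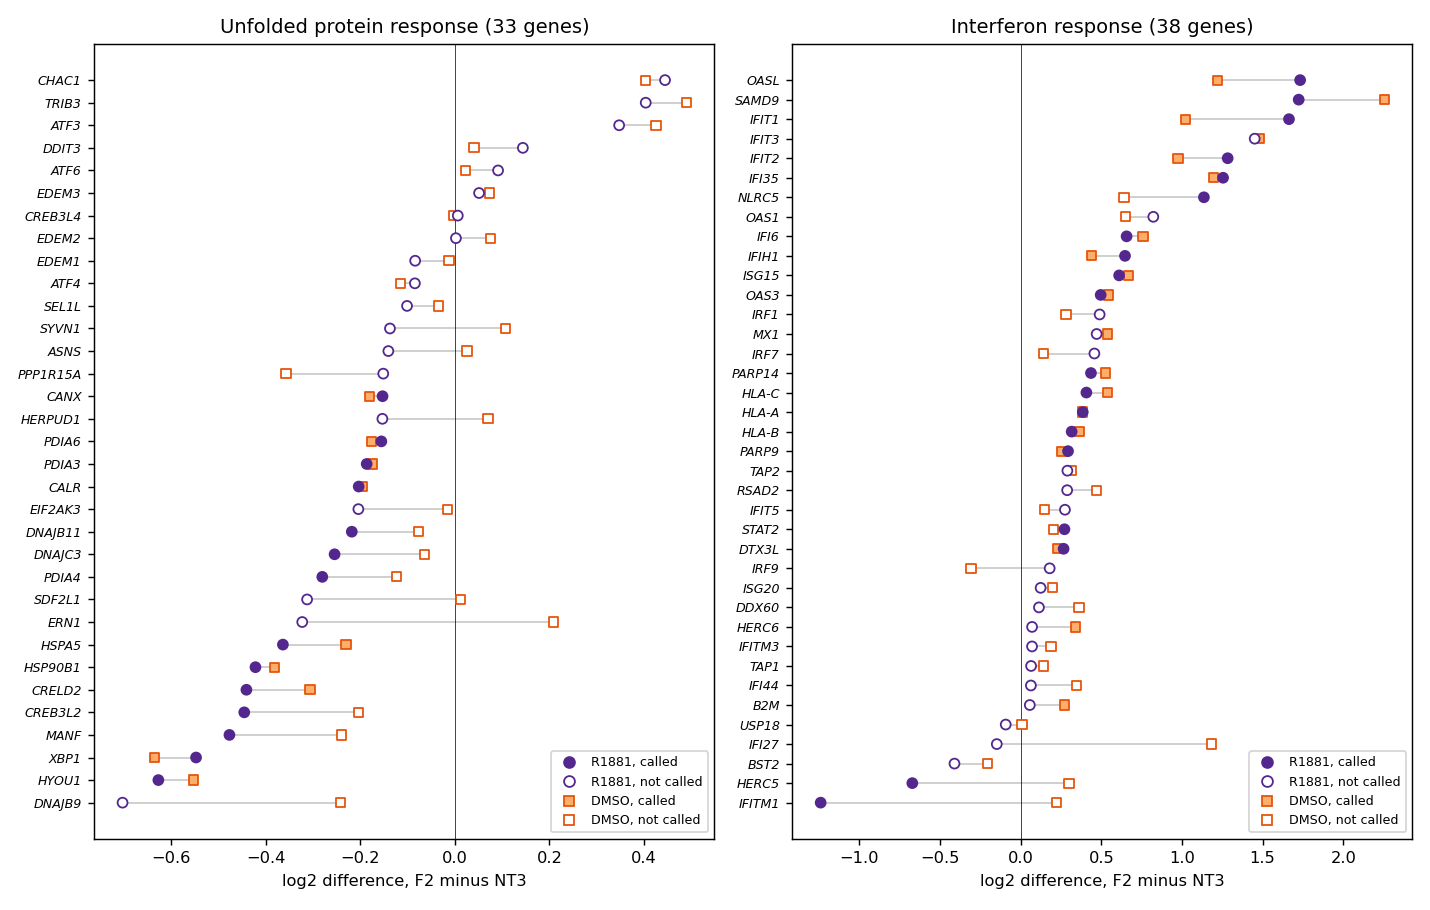
Log2 difference between F2 and NT3 with R1881 (circles) and DMSO (squares) for members of the unfolded protein response list (left, 33 genes) and the interferon response list (right, 38 of its 39 tested genes), filled where the adjusted p was under 0.05. Lower members such as HYOU1 and XBP1, and higher members such as SAMD9 and IFI35, have filled symbols at both treatments.

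Promoter windows of a gene from either list are shown with the element for which that list is known, since the data bear on these lists. The window of HSPA5 covers the 250 bases before its start at chr9:125241344-125241593 on the minus strand, with the endoplasmic reticulum stress element, CCAAT and CCACG with 9 bases of any kind between them, in capitals. The window of IFIT1 lies at chr10:89392373-89392622 on the plus strand, with the interferon element, GAAA and GAAA with 2 bases of any kind between them, found here on the opposite strand, in capitals. Both come from RefSeq on GRCh38.p14 and are printed 5′ to 3′ on the gene's strand.
HSPA5: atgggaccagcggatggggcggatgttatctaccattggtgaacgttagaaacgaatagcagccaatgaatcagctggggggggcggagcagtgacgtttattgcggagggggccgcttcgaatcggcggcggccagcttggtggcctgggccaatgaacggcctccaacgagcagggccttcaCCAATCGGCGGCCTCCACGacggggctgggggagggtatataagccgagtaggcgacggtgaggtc
IFIT1: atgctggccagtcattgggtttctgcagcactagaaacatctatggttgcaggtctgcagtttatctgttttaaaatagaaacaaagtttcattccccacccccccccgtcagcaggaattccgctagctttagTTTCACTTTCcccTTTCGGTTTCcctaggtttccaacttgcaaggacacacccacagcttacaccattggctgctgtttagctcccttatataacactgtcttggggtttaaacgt
Both elements were searched on both strands. The stress element was in 22 of 27305 promoter windows (0.0806%), in 6 of 32 windows of tested list members and in 6 of 13 of those that were lower, which were CALR, CANX, CRELD2, HSP90B1, HSPA5 and XBP1. The interferon element was in 3.07% of all windows, in 20 of 32 windows of tested list members in 7 of 13 of those that were higher and in both windows of those that were lower, HERC5 and IFITM1. HSPA5 holds 1 copy, at base -66, and IFIT1 holds 2, at bases -116 and -103.

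Over all genes 6.19% were higher and 7.26% lower with R1881, and the counts of other groups are read against these. Of 30 histone genes tested, 7 were higher (23.3%) and no other passed, with a median of 0.16, and with DMSO 11 were higher, with a median of 0.35. H2BC12, which encodes histone H2B, rose from 31.2, 34.5 and 36.5 CPM to 52.5, 56.2 and 41.0 (0.55, SE 0.10, adjusted p = 0.000673). Most histone mRNAs lack the poly(A) tail by which these libraries were selected, so these levels cover the tailed part only. Of 29 p53 targets, 6 were higher and 1 lower (20.7% and 3.45%), with a median of 0.13. PHLDA3, an inhibitor of AKT, rose from 21.2, 21.9 and 23.7 CPM to 37.9, 38.6 and 32.2 (0.70, SE 0.09), and SPATA18 from 3.56, 4.15 and 3.19 to 6.11, 6.62 and 6.93 (0.85, SE 0.14). BTG1, an antiproliferative gene of the same list, fell from 260.0, 244 and 257 to 119, 146 and 129 (-0.95, SE 0.09). Of 33 potassium channels, 7 were lower and 4 higher (21.2% and 12.1%), with KCNMA1 falling from 48.0, 54.6 and 42.3 CPM to 12, 14.8 and 12.9 (-1.87, SE 0.19). The cholesterol and fatty acid synthesis list held 7 higher and 5 lower of 39 with R1881 (17.9% and 12.8%), and 12 higher and 3 lower with DMSO. The hypoxia and glycolysis list held 5 higher and 4 lower of 35 with R1881 (14.3% and 11.4%).

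R1881 changed 2042 genes in NT3 (13.2%; 8.0% higher, 5.15% lower) and 1611 in F2 (10.4%; 6.4% higher, 3.98% lower). Whether F2 responded differently from NT3 was asked with an interaction term. Of 15519 genes 0 passed an adjusted p of 0.05 (0.0%) in edgeR, where the smallest was 0.053. At an unadjusted p under 0.05 there were 454, and DESeq2 called 6. With the replicate number as a block 17 passed (3 higher, 14 lower), and with no filter on low counts 19. With DMSO every number gave a pair correlated above 0.1, while with R1881 only numbers 2 and 3 did. The main fit of the interaction does not use such pairs. No call is made here on a single gene, and the values that follow are given as measured. NDRG1, a stress- and androgen-responsive gene, was at 40.5, 50.6 and 36.7 CPM in NT3 and 40.6, 47.5 and 37.1 in F2 with DMSO, overlapping, and at 184, 225 and 146 against 86.0, 129 and 75.4 with R1881. With at least 5 CPM, it was the lowest of the genes called with R1881 (-0.94, SE 0.18, adjusted p = 0.00191) whose DMSO value was under 0.1 in size (-0.03, SE 0.20). Its interaction value was -0.91 (SE 0.27, unadjusted p = 0.0037, adjusted p = 0.99). NDRG1 was picked for a low value with R1881 and a DMSO value near 0. Its interaction value was thus bound to be negative, and the unadjusted p is no test of it. FZD5, a Wnt receptor, was at 32.7, 35.5 and 35.1 CPM against 34.3, 30.6 and 30.4 with DMSO and at 126, 135 and 123 against 79.0, 83.3 and 69.3 with R1881, an interaction of -0.62 (SE 0.12, unadjusted p = 1.99e-05, adjusted p = 0.154). FKBP5 gave -0.40 (SE 0.12, unadjusted p = 0.00263, adjusted p = 0.858), where the hormone raised it by 3.02 (SE 0.09) in NT3 and 2.62 (SE 0.09) in F2. KLK3 went the other way, with a larger measured response in F2 than in NT3, as given above. Over the androgen response list the median response was 0.61 in NT3 and 0.47 in F2, and over the genes induced in 42D 1.09 and 0.89.

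Set directly against the other guide lines with R1881, F2 differed from C2 in 3258 genes (21.0%; 1821 or 11.7% higher, 1437 or 9.26% lower) and from sgT33-5 in 1356 (8.74%; 691 or 4.45% higher, 665 or 4.29% lower). With only those 6 libraries in the fit the sgT33-5 count was 583. F2 stood above C2 in 60 of 100 androgen response genes and below it in 7, with a median of 0.33, and in 172 of 354 genes induced in 42D against 15, with a median of 0.39. Against sgT33-5 the androgen response list was balanced, with 13 higher, 11 lower and a median of 0.03. KLK3 lay in between, 1.41 above C2 (SE 0.20) and 1.01 below sgT33-5 (SE 0.20), at 193 ± 67.9 CPM in C2 and 1031 ± 93.6 in sgT33-5 (SD, n = 3). TMPRSS2 was 1.90 above C2 (SE 0.13) and 0.43 above sgT33-5 (SE 0.13, adjusted p = 0.0383). Of 43 cell cycle genes 20 were lower in F2 than in C2, with a median of -0.33, and the same list held 1 call in each direction against NT3. KCNH8, a potassium channel, was at 0.763, 1.52 and 1.59 CPM in NT3 and 0, 0.380 and 0.184 in F2, but at 15.9 ± 2.18 in C2 and 14.5 ± 3.10 in sgT33-5 (SD, n = 3). The comparisons of F2 and C2 with NT3 share the NT3 libraries.

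By position, chromosome 22 had the lowest median and the largest share of lower genes. Of its 381 tested genes, 100 were lower in F2 with R1881 (26.2%, against 7.26% of all genes), 3 were higher and 325 had a value below 0, with a median log2 difference of -0.21 (-0.17 with DMSO). The number lower was 63 with only the libraries compared, and the median was -0.13 with no filter on low counts. The share of nuclear counts from this chromosome was 2.188%, 2.181% and 2.169% in NT3 with R1881 and 2.021%, 1.98% and 1.94% in F2, with no overlap, and 2.233% to 2.271% against 2.058% to 2.087% with DMSO. NT3 stood above all 3 guide lines. C2 with R1881 was at 1.954% to 2.034% and sgT33-5 at 1.979% to 2.038%, and the F2 median on chromosome 22 was -0.03 against C2 and -0.06 against sgT33-5. Of the lower androgen response genes 1 lies on chromosome 22, and of the unfolded protein response genes 2 of the 14 lower do. Whether this bears on other differences was not tested.

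**Figure D5:**
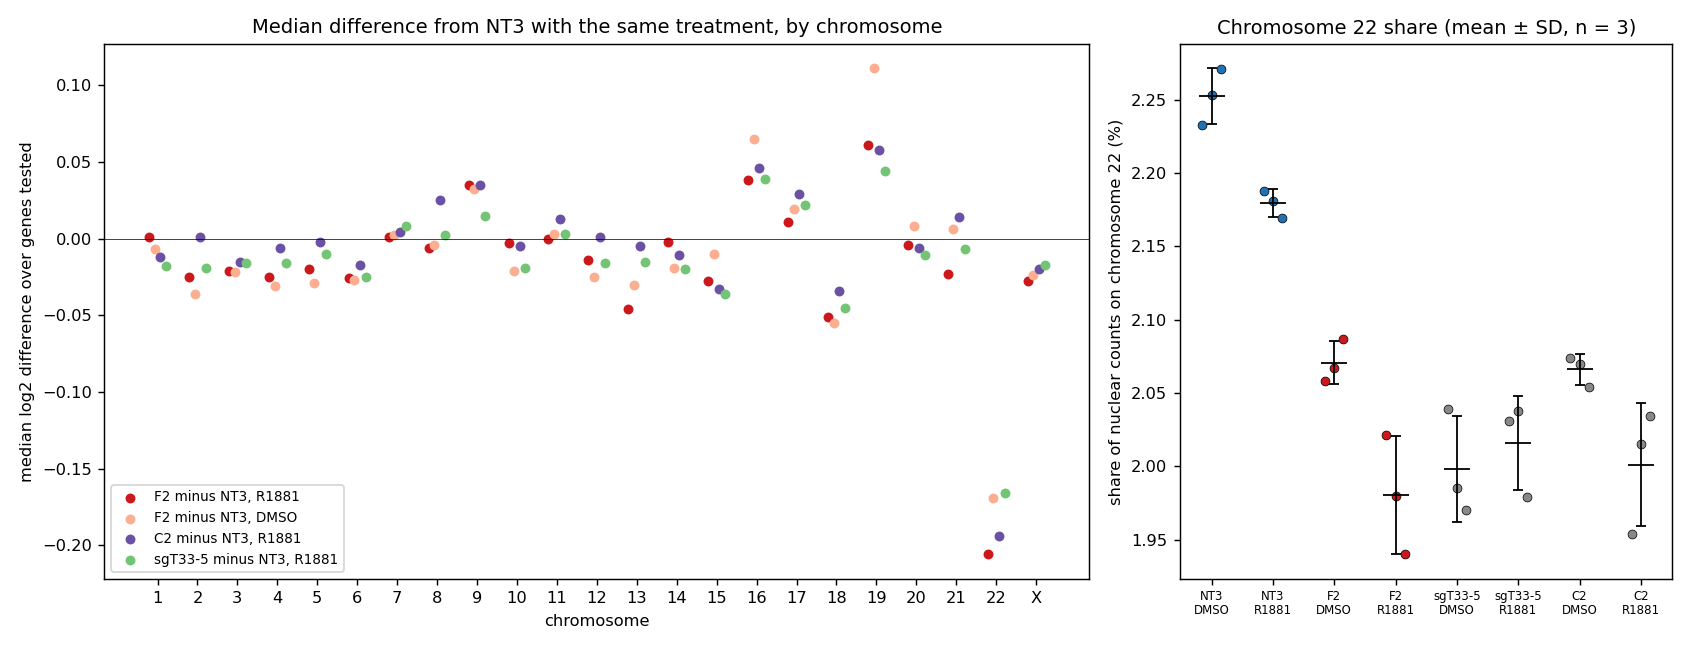
Left, median log2 difference over the tested genes of each chromosome for F2 with R1881, F2 with DMSO, C2 with R1881 and sgT33-5 with R1881, each against NT3 with the same treatment. Right, the percent of nuclear counts that come from chromosome 22 in every LNCaP library, with mean and SD of 3; the y axis does not start at 0. NT3 libraries lie at 2.169% or above, and the libraries of all 3 guide lines at 2.087% or below.

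Neighbouring genes also changed together in places. The longest run of adjacent tested genes called in the same direction was 7 genes on chromosome 19 (1086574 to 1259143 on GRCh38), from POLR2E, a subunit of the RNA polymerases, to MIDN, all higher, with a median of 0.32 (0.42 with DMSO). On chromosome 1 a run of 6 higher genes from 20272018 to 20651511 held CAMK2N1 and ended at PINK1, a kinase of mitochondrial quality control, with a median of 1.46 (1.31 with DMSO). On chromosome 22 a run of 5 lower genes from RTCB, an RNA ligase, to ISX (32387582 to 35087387) had a median of -0.51. On chromosome 21 a run of 4 lower genes between 25880550 and 28674848 held ADAMTS1 and had a median of -1.43. On chromosome 5 a run of 3 lower genes ended at NR2F1, an orphan nuclear receptor (91380349 to 93594611, median -2.29). Run lengths rest on single calls. In a fit of only the libraries compared, calls ended for POLR2E and MIDN (adjusted p = 0.0575 and 0.116), PINK1 (0.0609) and ISX (0.0517). The first gene of the chromosome 5 run also lost its call there (0.135). Overlapping genes within such runs may share reads, since the strand setting of the counts is not given in the sources used here. CAMK2N1 was at the same level in F2 and the other guide lines within error.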

How the data were processed

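The authors deposited 1 table of raw read counts per gene for all 36 libraries, with gene symbol, biotype and position. Per the submitters' processing notes, cutadapt, HISAT2 2.1.0 and GRCh38 were used, and the counting tool, its strand setting and the annotation version are not given in the sources used here. The libraries were stranded and selected for poly(A) RNA, per the labels' protocols. A row without a gene name holds 0 counts and was left out.

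The 24 LNCaP libraries were fitted together in edgeR 4.0.16 (R 4.3.3) with TMM scaling, filterByExpr and the quasi-likelihood test, and p-values were adjusted by Benjamini and Hochberg over the 15519 genes tested. Every adjusted p in the text without another tool's name comes from this fit. A gene was called at an adjusted p under 0.05. Standard errors were taken from the fold change and its F statistic. Genes induced in 42D came from a separate edgeR fit of the 12 libraries of that line. The scripts were tested on simulated counts. With 3 libraries a group, intervals and floors cover these libraries only, and the floor of 3 counts covers counting error only.

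Named genes were first a panel of androgen and TRIM33 genes. Next came the 15 highest and 15 lowest called differences with at least 5 CPM in either group and no overlap between their libraries. Up to 3 called members in each direction of every list followed, and the 6 highest and 6 lowest differences from C2, likewise filtered. The last were genes called with R1881 whose DMSO value was under 0.1 in size, and the ends of runs of neighbouring genes. This gave 234 genes. Further called members of 6 lists (androgen response, interferon, unfolded protein response, IGF, TGF-beta and BMP, p53) and the uncalled genes ATF4, DDIT3 and TRIB3 were named after their values had been seen. The members and lists were chosen with earlier results of these data known.

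Replicate numbers were checked for pairing by the correlation of deviations from the group means. With DMSO every NT3 and F2 pair was above 0.1 (0.129, 0.22 and 0.233), so those numbers were read as pairs, which the labels do not state. With R1881 the pairs gave 0.00763, 0.219 and 0.232, so numbers 2 and 3 were above 0.1 and number 1 was not. Pairing with R1881 was therefore not settled, and the fit without a block was kept as the main fit. Alternatives were RLE size factors, DESeq2 1.42.0, no filter on low counts, a 2-fold minimum, a replicate block, only the libraries compared and leaving out each library. Leaving out 2 sgT33-5 libraries of low mitochondrial share was added after the data had been seen, as were the interferon, unfolded protein response and chromosome 22 results among those followed over the alternatives. Some genes that these rules and lists name are not reported here.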

Additional observations from a re-analysis of the deposited data

Results flagged for a closer look

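F2 and C2 carry the same guide, yet 11 genes that differed between F2 and NT3 with R1881 were among those that differed most between F2 and C2 when these lines were compared directly. The log2 difference of F2 minus C2 was -6.30 (SE 0.37) for the potassium channel KCNH8, which stood at 15.9 ± 2.18 CPM in C2 (SD, n = 3). It was -4.45 for SEMA6A, -3.94 for ALB and -3.70 for CHRM3 (SE 0.21, 0.49 and 0.54). KCNJ3, another potassium channel, was at -4.17 (SE 0.56), with 0.244, 0.380 and 0.245 CPM in F2 and 5.45 ± 1.85 in C2 (SD, n = 3). The 6 highest were led by CLIP4 at 5.82 and ZDHHC15 at 3.60. Among the 6 were the zinc finger genes ZNF728 at 3.09 (SE 0.18) and ZNF681 at 2.21 (SE 0.18). ZNF728 was at 18.1, 17.0 and 14.7 CPM in F2 and 1.95 ± 0.824 in C2. The angiopoietin gene ANGPT2 was at 2.42 (SE 0.23) and the aldehyde dehydrogenase gene ALDH2 at 2.18 (SE 0.10). ALDH2 was at 42.9, 49.9 and 45.8 CPM in F2, 33.7, 32.2 and 27.2 in NT3 and 10.2 ± 0.353 in C2 (SD, n = 3), so F2 and C2 lay on opposite sides of NT3.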

How the results depend on the processing

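No called result reversed under any alternative run, and 2 values of genes that were never called changed sign. With a 2-fold minimum the counts of called genes were 357 for F2 against NT3 with R1881, 359 with DMSO, 599 against C2 and 290 against sgT33-5. With a replicate block they were 3345 with R1881, 3926 with DMSO and 2470 against sgT33-5, and 17 for the interaction. The block ended no call among the genes followed. All DMSO numbers gave pairs of NT3 and F2 above 0.1, and with R1881 only numbers 2 and 3 did. In a fit of only the libraries compared the counts of called genes were 1178 with R1881 and 583 against sgT33-5. That fit gave 8 lower genes of the unfolded protein response and 63 of chromosome 22. The interaction gave 1 gene with RLE size factors, 6 in DESeq2, 19 with no filter on low counts, and 0 to 3 on leaving out each library in turn. With no filter the chromosome 22 median was -0.13. Leaving out each library in turn gave 1413 to 2257 called genes with R1881 and 1524 to 2343 with DMSO. It gave 20 to 37 lower androgen response genes, 7 to 15 lower unfolded protein response genes and an interferon median of 0.31 to 0.39. The balance of all R1881 calls turned to more higher than lower without F2 replicate 3 (1234 and 1023) and with no filter (1219 and 1019). The cause of these shifts was not tested. Of 284 called genes followed, 176 kept the call in every alternative. Calls ended for 69 with only the libraries compared, 23 with no filter, 7 in DESeq2, 2 with RLE size factors and 6 without the 2 low-mitochondrial libraries, and for 34 to 69 on leaving out 1 library. Low genes such as IFIT1 and CHRD rest on few counts.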

Other observations

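Further gene families not described above also held called members. Of 30 ABC transporters tested, 7 were higher in F2 than in NT3 with R1881 and 2 lower (23.3% and 6.67%), with a median log2 difference of 0.03. Of 18 HOX genes, 4 were higher and 1 lower (22.2% and 5.56%). With DMSO the counts were 2 and 2, where 8.94% and 7.73% of all genes were called. Of 83 ribosomal protein genes, 7 were higher and 1 lower, with a median of 0.03 (8.43% and 1.2%, against 6.19% and 7.26% of all genes). Against C2 2 of them were higher and 7 lower, where 11.7% and 9.26% of all genes were. The 450 zinc finger genes named ZNF gave 18 higher and 24 lower (4.0% and 5.33%), against 6.19% and 7.26% of all genes.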
